A study of Mus musculus with 1600 samples.

Results

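Fxyd6, Hmcn1, Steap4 and Pcsk6 are 4 of the 45792 genes counted in single glomerular cells of mice. They were chosen from these same counts because their reads were nearly missing from both pools of diabetic mice and plentiful in both pools of control mice, with 0 to 8.78 CPM (reads per 1000000 gene reads of a pool) in the diabetes pools and 11.6 to 108 CPM in the control pools. Their diabetes-to-control difference is therefore given below as values, with no test, and what those values chose is not evidence for itself. The description concerns how large the gap was in each experiment, which cells carried the reads, and what moved with it.

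The glomerulus is the filter of the kidney. Its capillary loops are lined by fenestrated endothelial cells, held together by mesangial cells, and covered from outside by podocytes whose foot processes form the filtration slits. Fxyd6 encodes a small membrane protein of the FXYD family, whose members bind the sodium pump (Na,K-ATPase) and tune its ion affinity. Hmcn1 encodes hemicentin, a very large extracellular matrix protein related to the fibulins. Steap4 encodes a metalloreductase that reduces iron and copper ions at membranes. Pcsk6 encodes PACE4, a secreted proprotein convertase that cleaves precursors of growth factors and other proteins at basic residues.

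The diabetes groups were Nos3-/- mice on a C57BL/6 background, lacking endothelial nitric oxide synthase, which received streptozotocin, a toxin of the pancreatic beta cell, at 50 µg per g body weight a day on 5 days from 8 weeks of age. The control groups carried the same Nos3-/- genotype and received citrate vehicle, so no mouse with intact Nos3 is part of the comparison. All were sampled at 10 weeks. Glomeruli of 3 mice were pooled for each condition in each of 2 experiments, which gave the pools Diabetes 1, Diabetes 2, Control 1 and Control 2. Pooled mice cannot be separated again, so each condition has 2 samples. Cells were captured on Fluidigm C1 chips, microfluidic arrays on which a well is imaged before its RNA is made into a library. Each array held 20 columns of 40 wells and 1 pool of each condition, and the conditions exchanged sides of the array between the experiments. Wells with 1 imaged cell, at least 500 genes and at most 30% mitochondrial reads were kept: 128 and 188 wells of Diabetes 1 and Diabetes 2, and 120 and 203 wells of Control 1 and Control 2.

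Depth differed more between the experiments than between the conditions. The kept wells held 6723395 and 37973663 reads in Diabetes 1 and Diabetes 2, and 4763756 and 48389746 reads in Control 1 and Control 2. The pools also differed in sex-linked RNA, although the study describes its controls as matched for sex. Xist, the RNA that coats the inactive X chromosome of females, stood at 1.42 and 1.4 CPM in Diabetes 1 and Diabetes 2, against 356 and 442 CPM in Control 1 and Control 2. The sum of 4 Y-linked genes (Ddx3y, Eif2s3y, Kdm5d and Uty) was 154 and 160 CPM in the diabetes pools, against 0.279 and 0.605 CPM in the control pools. A difference between diabetes and control pools and a difference between male and female RNA cannot be told apart in any value that follows. Nos3 reads were present at 64.8 and 53.2 CPM in the diabetes pools, and at 41.7 and 62.1 CPM in the control pools. The labels do not say which part of the gene the allele removes, so these reads do not check the genotype.

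All 4 genes are protein-coding autosomal genes on different chromosomes. In the GRCm38 annotation (GENCODE), Fxyd6 lies on chromosome 9 from 45370185 to 45396159 (plus strand), Hmcn1 on chromosome 1 from 150562524 to 150993435 (minus strand), Steap4 on chromosome 5 from 7960457 to 7982213 (plus strand) and Pcsk6 on chromosome 7 from 65861734 to 66050386 (plus strand). Because the 4 genes were low in the same pools, the 250 bases before each RefSeq start (GRCm38.p6) are shown side by side, 5′ to 3′ on the strand of the gene. Capitals mark matches to the motifs searched on both strands, which were the GC box GGGCGG, the CCAAT box CCAAT, the TATA box TATAAA and the androgen and glucocorticoid receptor half-site AGAACA.
Fxyd6, chr9:45369935-45370184 (plus strand): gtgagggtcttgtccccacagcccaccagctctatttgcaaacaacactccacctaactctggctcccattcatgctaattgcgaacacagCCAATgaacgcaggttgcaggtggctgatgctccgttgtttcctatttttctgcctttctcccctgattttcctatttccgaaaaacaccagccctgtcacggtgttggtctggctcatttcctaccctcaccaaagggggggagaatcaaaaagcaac
Hmcn1, chr1:150993436-150993685 (minus strand): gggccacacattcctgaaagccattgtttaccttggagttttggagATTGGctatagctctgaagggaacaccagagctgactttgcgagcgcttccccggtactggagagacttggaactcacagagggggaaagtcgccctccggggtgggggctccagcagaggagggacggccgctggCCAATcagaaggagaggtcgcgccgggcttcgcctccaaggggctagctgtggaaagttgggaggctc
Steap4, chr5:7960222-7960471 (plus strand): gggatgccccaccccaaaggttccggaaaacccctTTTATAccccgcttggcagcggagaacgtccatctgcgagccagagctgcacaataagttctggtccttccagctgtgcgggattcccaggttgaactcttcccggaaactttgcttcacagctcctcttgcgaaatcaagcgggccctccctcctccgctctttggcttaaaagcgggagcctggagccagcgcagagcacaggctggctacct
Pcsk6, chr7:65861886-65862135 (plus strand): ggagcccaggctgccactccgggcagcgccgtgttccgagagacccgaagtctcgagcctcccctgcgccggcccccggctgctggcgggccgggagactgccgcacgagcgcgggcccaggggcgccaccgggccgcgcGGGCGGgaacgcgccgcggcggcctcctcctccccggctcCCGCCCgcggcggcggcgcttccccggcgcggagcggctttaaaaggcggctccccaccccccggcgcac
None of these motifs occurred in all 4 windows, and no matches overlapped. GC content was 50.4% for Fxyd6, 60% for Hmcn1, 58.4% for Steap4 and 81.2% for Pcsk6, against a median of 52.4% over 32851 RefSeq promoter windows of this length. The GC box occurred 2 times for Pcsk6 and not for the other 3 genes, and 32.7% of all windows hold it. CCAAT occurred once for Fxyd6 and 2 times for Hmcn1, and 33.8% of windows hold it. TATAAA occurred once for Steap4, on the opposite strand, and 12.4% of windows hold it. AGAACA, held by 16.1% of windows, was found in none of the 4. A missing match says only that these letters are not in this window.

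All 4 genes were lower in the diabetes pool of both experiments, by between 6 and at least 147 times. Fxyd6 had 3.72 and 0 CPM in Diabetes 1 and Diabetes 2, against 108 and 11.6 CPM in Control 1 and Control 2. It was the gene whose control pools differed most from each other. Its level was 29 times lower in diabetes in experiment 1 and at least 147 times lower in experiment 2, where the bound sets 3 reads in the diabetes pool against the control level. Hmcn1 had 1.78 and 0.748 CPM in Diabetes 1 and Diabetes 2, against 40.9 and 36.3 CPM in Control 1 and Control 2. Both control pools stood above both diabetes pools, 23 times in experiment 1 and 48.5 times in experiment 2. Steap4 had 8.78 and 0.816 CPM in Diabetes 1 and Diabetes 2, against 52.7 and 64 CPM in Control 1 and Control 2. Its level was 6 times lower in diabetes in experiment 1 and 78.4 times lower in experiment 2. Pcsk6 had 3.42 and 1.92 CPM in Diabetes 1 and Diabetes 2, against 70.5 and 46.2 CPM in Control 1 and Control 2. Its gap was the most even, 20.6 times in experiment 1 and 24.1 times in experiment 2.

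On the log2(CPM + 1) scale, which understates the change of low genes, diabetes minus control averaged -4.09 ± 0.62 for Fxyd6, -4.16 ± 0.36 for Hmcn1 and -3.81 ± 1.91 for Steap4 (SD, n = 2 experiments). For Pcsk6 it was -4.02 in experiment 1 and -4.01 in experiment 2. The smallest two-sided p that 2 pools against 2 pools could give in an exact permutation test is 0.333. Of 9032 genes with at least 10 CPM in both pools of a condition, 47 (0.520%) were at least 5 times lower in diabetes in both experiments, and these included the 4 genes, while 1.28% were at least 5 times higher. That contrast chose them, so nothing is read from the count. In sums of this kind, fewer cells of a type and less RNA per cell cannot be told apart. A scale that does not depend on the cells' own RNA exists for experiment 1, where spike-in RNA was counted. Per 1000000 spike-in reads, Fxyd6 had 21.6 reads in Diabetes 1, against 428 in Control 1. Hmcn1 had 10.4 in Diabetes 1, against 162 in Control 1. Steap4 had 51.1 in Diabetes 1, against 208 in Control 1, and Pcsk6 had 19.9 in Diabetes 1, against 279 in Control 1. The order of the pools was the same on both scales for each of the 4 genes.

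**Figure D1:**
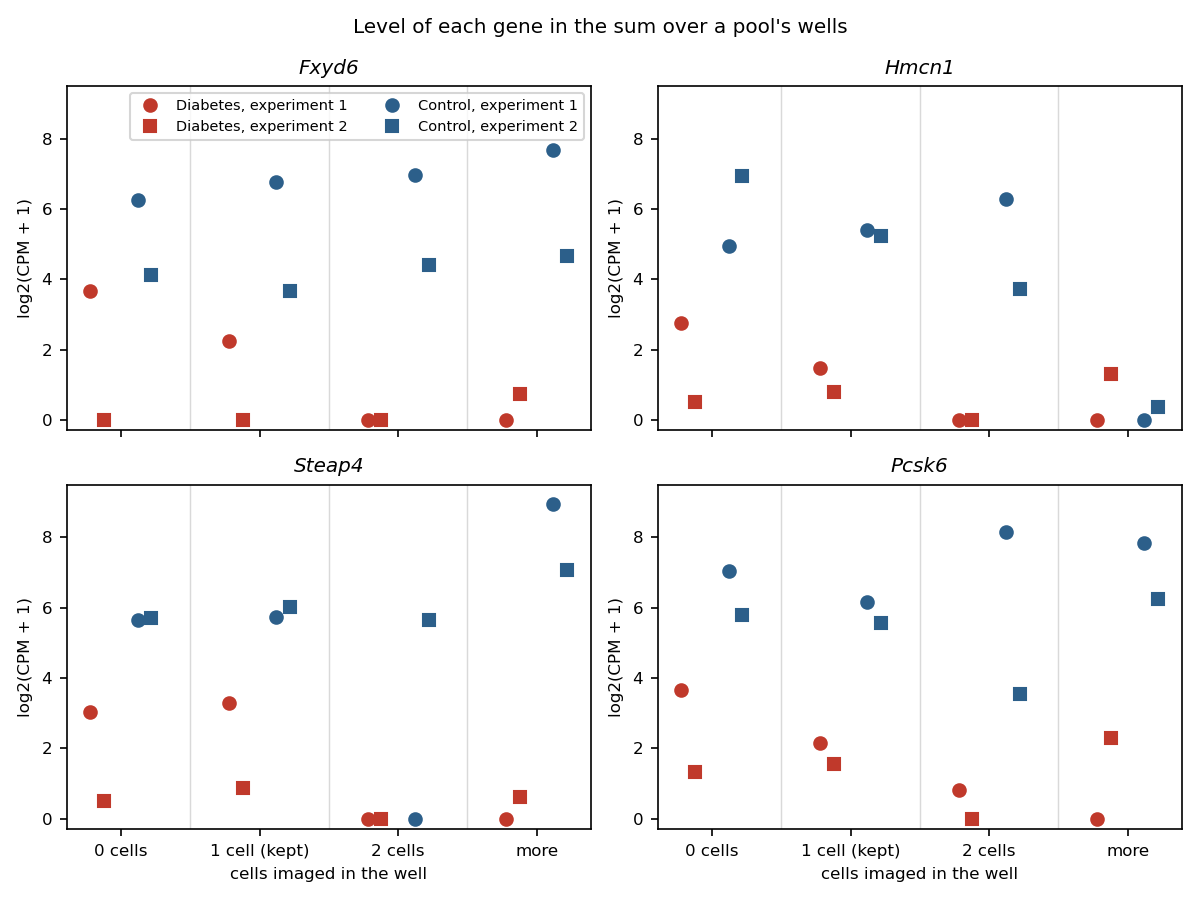
Level of each gene as log2(CPM + 1) in the sum over a pool's wells (vertical axis), by the number of cells imaged in the well (horizontal axis, from 0 to more than 2 cells or debris), with circles for experiment 1, squares for experiment 2, red for diabetes pools and blue for control pools. Among the kept wells with 1 cell, both diabetes pools lie below both control pools for all 4 genes, and the single reversal within experiment 2 is Hmcn1 in wells with more than 2 cells or debris.

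The wells imaged with other numbers of cells, which come from the same pools, showed the gap for most gene and pool combinations. In wells imaged with 0 cells, Steap4 had 7.24 and 0.426 CPM in Diabetes 1 and Diabetes 2, against 49 and 51.6 CPM in Control 1 and Control 2. Pcsk6 had 11.6 and 1.49 CPM in the diabetes pools, against 132 and 54.5 CPM in the control pools. Fxyd6 had 11.6 and 0 CPM in the diabetes pools, against 75.9 and 16.4 CPM in the control pools. RNA of these genes was thus counted in wells in which no cell was seen. Hmcn1 had 5.79 and 0.426 CPM there in the diabetes pools, against 29.8 and 122 CPM in the control pools, where 492 of its 538 Control 2 reads lay in 1 well. With 2 or more cells or debris, Fxyd6 had 0 and 0.475 CPM in the diabetes pools, against 147 and 22.2 CPM in the control pools. Steap4 had 0 and 0.38 CPM, against 138 and 89.4 CPM in the control pools. Pcsk6 had 0.571 and 2.75 CPM, against 267 and 41.9 CPM in the control pools. Hmcn1 had 0 and 1.06 CPM, against 55.1 and 6.43 CPM in the control pools. The order was reversed for Hmcn1 in experiment 2 in wells with more than 2 cells or debris, at 1.49 CPM in Diabetes 2 against 0.285 CPM in Control 2, or 22.3 against 3.53 reads. No gap could be seen in experiment 1 for Hmcn1 in wells with more than 2 cells or debris (0 of 5 wells of Diabetes 1 and 0 of 4 of Control 1 with reads) or for Steap4 in wells with 2 cells (0 of 23 and 0 of 12).

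The share of wells in which a gene was seen at all differed as well, with intervals that cover counting error only, since reads without molecular identifiers are not independent molecules. Fxyd6 was read in 4 of 128 kept wells of Diabetes 1 (3.12%, 95% exact binomial interval 0.858 to 7.81) and 0 of 188 of Diabetes 2 (exact interval 0 to 1.94), and 3 counts of that total would be a share of 1.6%. In the controls it was read in 46 of 120 kept wells of Control 1 (38.3%, 29.6 to 47.6) and 20 of 203 of Control 2 (9.85%, 6.12 to 14.8). Its interval for the diabetes pool lay below that of the control pool in both experiments. The 4 genes were chosen for few reads in the diabetes pools, so nothing is read from whether their intervals overlap. The intervals also count each well as a separate draw, while each condition has 2 pools. Steap4 was read in 3 of 128 wells of Diabetes 1 (2.34%, 0.486 to 6.7) and 2 of 188 of Diabetes 2 (1.06%, 0.129 to 3.79). In the controls it was read in 15 of 120 wells of Control 1 (12.5%, 7.17 to 19.8) and 73 of 203 of Control 2 (36%, 29.4 to 43). The shares were closer for Hmcn1 in both experiments and for Pcsk6 in experiment 1. Pcsk6 was read in 6.25% and 4.79% of wells of Diabetes 1 and Diabetes 2, against 10.8% and 26.1% of Control 1 and Control 2. Hmcn1 was read in 2.34% and 4.26% of wells of Diabetes 1 and Diabetes 2, against 10% and 8.87% of Control 1 and Control 2. The intervals of Hmcn1 overlapped between the conditions in both experiments, as did those of Pcsk6 in experiment 1. Of kept wells with at least 20 reads of a gene, the diabetes pools held 0 for Fxyd6, 0 for Hmcn1, 2 for Steap4 and 1 for Pcsk6, against 14, 10, 24 and 23 in the control pools.

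**Figure D2:**
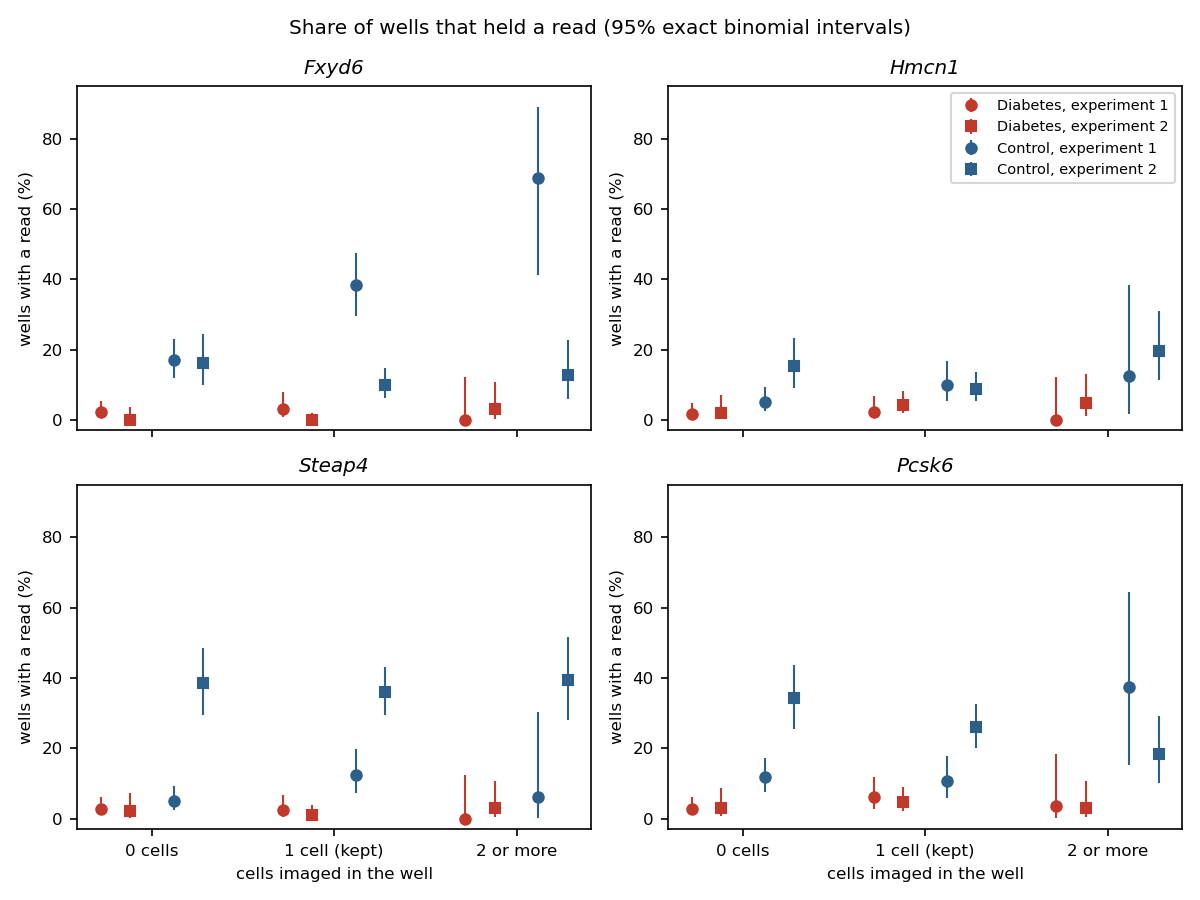
Share of wells with at least 1 read of each gene in percent (vertical axis) by cells imaged in the well (horizontal axis), with 95% exact binomial intervals as bars, circles for experiment 1, squares for experiment 2, red for diabetes pools and blue for control pools. For Fxyd6 in kept wells the diabetes pools reach 3.12%, while Control 1 and Control 2 stand at 38.3% and 9.85%.

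Kept wells were clustered on their most variable genes without the 4 genes, and each cluster was named from marker lists. The names rest on rebuilt clusters, doublets were not called, and the deposited files give no cell types. Podocyte-like wells numbered 2 and 18 in Diabetes 1 and Diabetes 2, and 23 and 30 in Control 1 and Control 2. Mesangial-like wells numbered 2 and 12 in the diabetes pools, and 26 and 60 in the control pools. Endothelial-like wells numbered 81 and 104 in the diabetes pools, and 54 and 94 in the control pools. Mesangial-like wells were thus 1.56% and 6.38% of kept wells in Diabetes 1 and Diabetes 2, against 21.7% and 29.6% in Control 1 and Control 2, and podocyte-like wells were 1.56% and 9.57%, against 19.2% and 14.8%. Steap4 and Pcsk6, each read mainly in 1 of these 2 classes in the controls, were also lower in the diabetes pools. Endothelial-like wells were 63.3% and 55.3% of kept wells in Diabetes 1 and Diabetes 2, against 45% and 46.3% in Control 1 and Control 2. Hmcn1, read mainly in that larger class, and Fxyd6, read partly in it, were lower in diabetes as well. The part of class size in the pooled levels was not tested. Within a class the number of wells no longer enters the level, but the class sums of Diabetes 1 rest on 2 wells each for podocyte-like and mesangial-like cells.

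Steap4 was read mainly in mesangial-like wells of the controls, which held 96.4% and 93.2% of its reads in Control 1 and Control 2. In this class it had 0 and 0 CPM in Diabetes 1 and Diabetes 2, against 260 and 222 CPM in Control 1 and Control 2. It was read in 0 of 2 and 0 of 12 diabetes wells (exact upper bound 26.5% for Diabetes 2), against 10 of 26 wells of Control 1 (38.5%, 20.2 to 59.4) and 35 of 60 wells of Control 2 (58.3%, 44.9 to 70.9). With 3 reads set for the diabetes pool, the read-count bound was 16.6 times lower in experiment 1 and 146 times lower in experiment 2. These bounds leave out the draw of wells. The 2 wells of Diabetes 1 set no floor, since many Control 1 wells of the class also held no read. The summed mesangial markers of this class stood at 9228 and 9797 CPM in Diabetes 1 and Diabetes 2, against 14723 and 11818 CPM in Control 1 and Control 2. Of the 10 markers, 7 were lower and 3 higher in Diabetes 2 than in Control 2. Itga8, an integrin chain of mesangial cells, had 1408 CPM in Diabetes 2 against 1910 CPM in Control 2, and Sfrp2 had 465 against 1368 CPM. Smooth muscle or renin markers in the same wells stood at 904 and 901 CPM in the diabetes pools, against 560 and 307 CPM in the control pools, and fibroblast markers at 3321 and 1141 CPM, against 377 and 583 CPM. The part of these markers in the Steap4 values was not tested. After each well was thinned to 10000 reads, Steap4 was read in 0 of 12 wells of Diabetes 2, against 20 of 60 wells of Control 2. In other classes of Control 2, Steap4 was read in 10 of 30 podocyte-like wells at 3.82 CPM and in 25 of 94 endothelial-like wells at 7.57 CPM. Of the 176 endothelial-like reads, 106 lay in 1 well with 6460 CPM of mesangial markers, and without it the level was 3.07 CPM. In mesangial-like wells 16% of 6502 genes were at least 5 times lower in diabetes in both experiments, against 0.923% at least 5 times higher, so a gap of that size in this class is common and nothing is read from it for Steap4.

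Steap4 went the other way in the class named smooth muscle or renin-like, whose markers were mixed. Smooth muscle or renin markers summed to 8657 and 3469 CPM in Diabetes 1 and Diabetes 2, against 41892 and 9198 CPM in Control 1 and Control 2. Fibroblast markers there summed to 13866 and 1718 CPM in the diabetes pools, against 21704 and 11529 CPM in the control pools. Mesangial markers summed to 3969 and 8757 CPM in the diabetes pools, against 3989 and 5008 CPM in the control pools. In this class Steap4 had 93.4 and 6.97 CPM in Diabetes 1 and Diabetes 2, against 0 and 1.15 CPM in Control 1 and Control 2. The reads lay in 2 of 8 and 2 of 12 diabetes wells, against 0 of 9 and 2 of 11 control wells. In Diabetes 1 they came from 2 wells, at array column 13, row 25 (9 Steap4 and 14 Fxyd6 reads) and column 17, row 3 (49 Steap4 and 9 Fxyd6 reads). Both wells held fibroblast markers, with 284 and 318 reads of the matrix proteoglycan gene Dcn, and no read of Myh11, Cnn1, Ren1 or Rgs5. These 2 wells carried 58 of the 59 Steap4 reads and 23 of the 25 Fxyd6 reads of Diabetes 1. In Diabetes 2, 30 of 31 Steap4 reads lay in 1 well, which had 13736 CPM of mesangial and 4197 CPM of smooth muscle or renin markers.

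Pcsk6 was read mainly in podocyte-like wells of the controls, with 98.8% and 83.4% of its reads in Control 1 and Control 2. In this class it had 0 and 0.718 CPM in Diabetes 1 and Diabetes 2, against 269 and 254 CPM in Control 1 and Control 2. It was read in 0 of 2 and 2 of 18 diabetes wells, with 1 read each, against 9 of 23 wells of Control 1 (39.1%, 19.7 to 61.5) and 25 of 30 wells of Control 2 (83.3%, 65.3 to 94.4). With 3 reads set for Diabetes 1, the read-count bound in experiment 1 was 10.1 times lower. It leaves out the draw of wells, and 2 wells set no floor. In experiment 2 the ratio was 354, with a 95% exact counting interval of 97.9 to 2928, since Diabetes 2 held 2 reads. That interval takes each read as a separate draw, which reads without molecular identifiers are not. Of the 1863 reads of Control 2 in this class, 562 lay in 1 well, so the interval is too narrow for the spread between wells or pools. The podocyte marker Podxl, which encodes the surface sialomucin podocalyxin, was read in 18 of 18 podocyte-like wells of Diabetes 2 and in 30 of 30 of Control 2. Of 10 podocyte markers, 9 were lower and 1 higher in Diabetes 2 than in Control 2. Summed podocyte markers stood at 5657 and 20785 CPM in Diabetes 1 and Diabetes 2, against 27691 and 31533 CPM in Control 1 and Control 2. Endothelial markers in the same wells were 4193 and 5812 CPM in the diabetes pools, against 875 and 3120 CPM in the control pools, and their part in the Pcsk6 values was not tested. After thinning, Pcsk6 was read in 0 of 18 podocyte-like wells of Diabetes 2, against 15 of 30 of Control 2. For comparison, it was read in 9 of 60 mesangial-like wells of Control 2, at 1.77 CPM. In podocyte-like wells 10.9% of 6178 genes were at least 5 times lower in diabetes in both experiments, against 2.23% at least 5 times higher, and nothing is read from this for Pcsk6 or Fxyd6.

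Among kept wells, the highest Pcsk6 count of each diabetes pool lay outside podocyte-like wells. A kept endothelial-like well of Diabetes 2 held 51 of that pool's 73 kept reads. In wells that were not classed, 100 reads lay in 1 well of Diabetes 2 left out for its 37.9% mitochondrial reads, and 56 in 1 well of Diabetes 2 with more than 2 cells or debris. In Diabetes 1, 13 of the 23 kept reads lay in 1 tubular-like well. In endothelial-like wells, the largest class, Pcsk6 had 2.29 and 2.6 CPM in Diabetes 1 and Diabetes 2, against 1.49 and 10.7 CPM in Control 1 and Control 2. It was thus not lower in diabetes there in experiment 1 (8 against 3 reads), and 186 of the 248 Control 2 reads lay in 1 well. In smooth muscle or renin-like wells it had 1.61 and 0 CPM, against 4.32 and 28.5 CPM in the control pools.

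Fxyd6 was carried by different classes in the control pools of the 2 experiments. Podocyte-like wells held 44.9% of its reads in Control 1 and 82.6% in Control 2, while endothelial-like wells held 49.1% in Control 1 and 15.3% in Control 2. In podocyte-like wells it had 0 and 0 CPM in Diabetes 1 and Diabetes 2, against 187 and 63.4 CPM in Control 1 and Control 2. It was read in 0 of 2 and 0 of 18 of these diabetes wells, against 12 of 23 and 7 of 30 of these control wells. The read-count bound was 7 times lower in experiment 1 and 58.7 times lower in experiment 2. It leaves out the draw of wells, and the 2 wells of Diabetes 1 set no floor. In endothelial-like wells it had 0.572 and 0 CPM in Diabetes 1 and Diabetes 2, against 126 and 3.7 CPM in Control 1 and Control 2, so the endothelial-like level of Control 1 was not seen in Control 2. The endothelial-like wells with reads were 2 of 81 and 0 of 104 in diabetes, against 29 of 54 and 9 of 94 in control. Of the 14 control wells with at least 20 reads, 10 were podocyte-like and 4 endothelial-like.

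Hmcn1 was an endothelial-like signal concentrated in few wells. In endothelial-like wells it had 0.572 and 0.973 CPM in Diabetes 1 and Diabetes 2, against 94.7 and 56.9 CPM in Control 1 and Control 2. The ratio was 166 in experiment 1, with a 95% exact counting interval of 45.2 to 1377 since Diabetes 1 held 2 reads, and the level was 58.5 times lower in experiment 2. That interval takes each read as a separate draw, although 75 of the 190 endothelial-like reads of Control 1 lay in 1 well. It is too narrow for the spread between wells or pools. Erythroid markers in endothelial-like wells stood at 12355 and 5565 CPM in Diabetes 1 and Diabetes 2, against 0 and 22.4 CPM in Control 1 and Control 2. Their part in the Hmcn1 and Fxyd6 values of this class was not tested. Hmcn1 was read in 1 of 81 and 4 of 104 diabetes wells, against 9 of 54 wells of Control 1 (16.7%, 7.92 to 29.3) and 14 of 94 wells of Control 2 (14.9%, 8.39 to 23.7). In Control 2, 882 of its 1324 endothelial-like reads (66.6%) lay in 1 well. Another 413 reads, 23.5% of the kept reads of Control 2, lay in 1 well of the smooth muscle or renin-like class, which had 5663 CPM of fibroblast markers and 8.84 CPM of smooth muscle or renin markers. These 2 wells held most of the Hmcn1 reads of Control 2. After thinning, Hmcn1 was read in 0 of 73 and 0 of 104 endothelial-like wells of the diabetes pools, against 9 of 46 and 6 of 94 of the control pools.

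**Figure D3:**
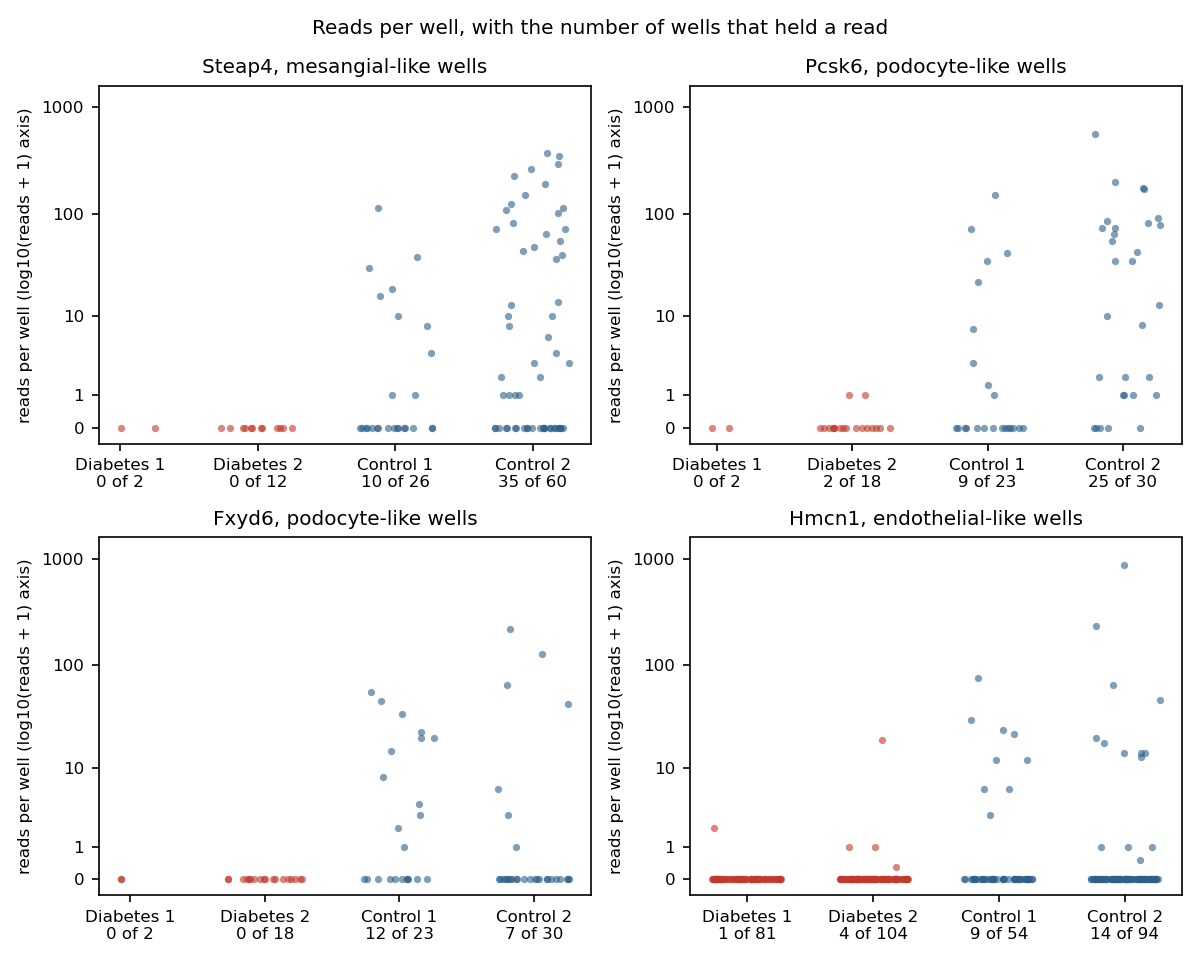
Reads per well on a log10(reads + 1) axis (vertical), 1 point per kept well, in the class that held a large share of each gene's control reads, with the diabetes pools left of the control pools and the number of wells with a read under each pool. No mesangial-like diabetes well held a Steap4 read and no podocyte-like diabetes well held an Fxyd6 read, while Control 2 held reads in 35 of 60 and 7 of 30 wells.

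**Figure D4:**
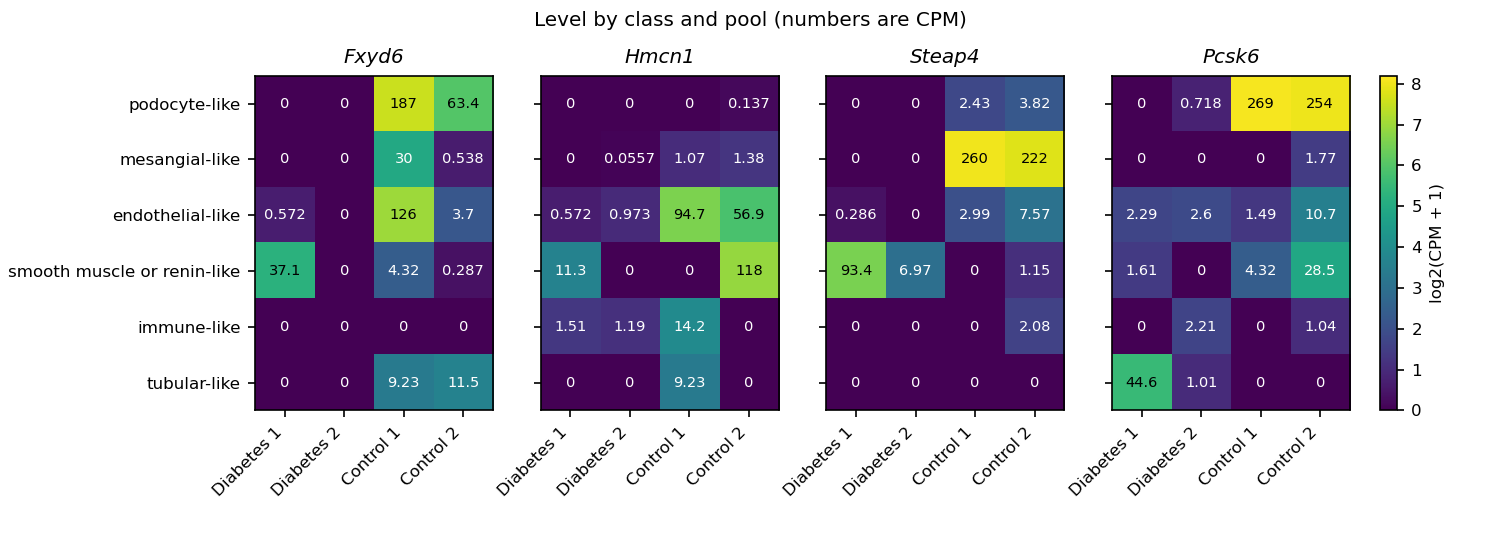
Level of each gene as log2(CPM + 1) in colour and as CPM in figures, with classes in rows and pools in columns, diabetes pools left. Steap4 stands out in mesangial-like wells of the controls (260 and 222 CPM) and Pcsk6 in podocyte-like wells of the controls (269 and 254 CPM).

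The wells beside a high well carried reads more often than other wells of the same array column. In control columns whose highest well had at least 50 reads of a gene, the wells 1 or 2 rows away held Steap4 in 28 of 42 cases (66.7%), against 116 of 387 wells farther away (30%). The same counts were 30 of 52 (57.7%) against 91 of 455 (20%) for Pcsk6, 14 of 24 (58.3%) against 37 of 210 (17.6%) for Fxyd6, and 13 of 22 (59.1%) against 26 of 212 (12.3%) for Hmcn1. In 2 diabetes columns with such a Pcsk6 well, 6 of 8 neighbouring wells held reads, against 7 of 70 farther away. The part of this neighbourhood in the shares of wells with a read was not tested.

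Reads of more than 1 of the 4 genes in the same well were counted in each pool. Of kept wells with a read of any of the 4 genes, 4 of 13 in Diabetes 1 and 0 of 19 in Diabetes 2 held reads of at least 2 of them, against 24 of 61 in Control 1 and 33 of 128 in Control 2.

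The closest other genes by level across the 19 sums of pool and class with at least 5 wells were ranked by Pearson's r of log2(CPM + 1) among 12749 genes. These sums share pools and depth, so r is a description. They include the diabetes and control sums, so a low diabetes level in a gene ranked here is partly what the ranking selects. For Steap4 they were Twist1 (0.91), a transcription factor of mesenchymal cells, Shc3 (0.88), Snx33 (0.83), Vegfc (0.81), a lymphatic growth factor, and Gng8 (0.81). Twist1 had 2.02 CPM in mesangial-like wells of Diabetes 2, against 16.1 and 27.7 CPM in those of Control 1 and Control 2. For Pcsk6 they were Gm13936 (0.85), Scel (0.83), Spon1 (0.82), Tubb2b (0.82) and Ccbe1 (0.82). Scel, which encodes sciellin, had 5.74 CPM in podocyte-like wells of Diabetes 2, against 59.9 and 77.1 CPM in those of Control 1 and Control 2. Spon1 was not nearly absent there, with 92.6 CPM in Diabetes 2, against 213 and 150 CPM in Control 1 and Control 2. For Fxyd6 they were Map10 (0.79), Nars2 (0.77), Gm37205 (0.76), Ndufaf5 (0.73) and Ccdc126 (0.72). For Hmcn1 they were Cep76 (0.76), Cdca5 (0.75), Clca3a1 (0.70), Tnfrsf25 (0.69) and 1700029J07Rik (0.69).

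Relatives and partners of the 4 genes were tested with edgeR's quasi-likelihood test on pool sums, with experiment as a block. No gene of the 4 lists passed in endothelial-like or mesangial-like wells (edgeR, adjusted p = 1 for each gene tested). Over all genes, edgeR called 1 of 12989 (0.00770%) lower and 0 higher in endothelial-like wells, with 516 at an unadjusted p under 0.05 and 107 called by DESeq2. In mesangial-like wells edgeR called 0 of 8323, with 347 at an unadjusted p under 0.05 and 2 called by DESeq2. Without Diabetes 2, which leaves Diabetes 1's 2 mesangial-like wells as the diabetes group, 5 list genes had an edgeR adjusted p under 0.05 in mesangial-like wells: Atp1b2 (0.0038), Mbtps1 (0.0222), Atp1b3 (0.0247), Nid1 (0.0298) and Nid2 (0.0457). In that fit edgeR called 1306 of 9677 genes (13.5%), and the median log2 fold change of the genes tested was -8.00. The single call was Xist in endothelial-like wells (log2 fold change -7.90, SE 0.47, edgeR adjusted p = 0.0424, range over the alternatives 6.54e-49 to 0.0242). The filter on low counts passed 4 of the 4 genes in endothelial-like wells and 1 of 4, Steap4, in mesangial-like wells.

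Of the sodium pump and FXYD list, 7 of 12 genes were tested in endothelial-like wells, with a median log2 fold change of -0.03, against 0.03 over all genes tested. Fxyd5, another FXYD regulator, had 446 and 683 CPM in Diabetes 1 and Diabetes 2, against 503 and 440 CPM in Control 1 and Control 2, and the pump subunit gene Atp1b3 had a log2 fold change of -0.03 (SE 0.32). In mesangial-like wells 8 of 12 were tested, with a median of -0.33 against -1.03 over all genes. Atp1b3 had 1174 and 230 CPM there in the diabetes pools, against 250 and 149 CPM in the control pools, Atp1b2 had 10.5 and 147 against 241 and 308 CPM, and Fxyd5 had 105 and 120 against 129 and 188 CPM. In podocyte-like wells, where values only are given, Fxyd5 had 233 and 155 CPM in the diabetes pools, against 7.28 and 128 CPM in the control pools. Fxyd5 thus did not share the near absence of Fxyd6. Atp1b3 had 907 and 146 CPM in podocyte-like wells of the diabetes pools, against 210 and 51.8 CPM in those of the control pools.

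Of the hemicentin, fibulin and basement membrane linker list, 7 of 10 genes were tested in endothelial-like wells, with a median log2 fold change of 0.36. Fbln7, a fibulin gene that was not among those tested and is named after its values were seen, had 0.149 and 0.0527 CPM over all kept wells of Diabetes 1 and Diabetes 2, against 12.2 and 15.1 CPM in Control 1 and Control 2, and is 1 of the 47 genes. In podocyte-like wells Fbln7 had 0 and 0.359 CPM in the diabetes pools, against 27.5 and 32.6 CPM in the control pools. Nid1 and Nid2, which encode the nidogens that link laminin to collagen IV, and Hspg2, which encodes perlecan, had log2 fold changes of -0.01 (SE 0.35), -0.12 (SE 0.40) and 0.36 (SE 0.34). Nid1 had 204 and 216 CPM in the diabetes pools, against 163 and 291 CPM in the control pools. In mesangial-like wells 4 of 10 were tested, with a median of -0.69, and Nid1 had 94.2 and 691 CPM in the diabetes pools, against 565 and 367 CPM in the control pools. Efemp2 had 167 and 199 CPM there, against 143 and 138 CPM, and Nid2 had 0 and 232 CPM, against 64.4 and 73.7 CPM. In podocyte-like wells Nid2 had 258 and 52.4 CPM in the diabetes pools, against 8.9 and 4.1 CPM in the control pools, Hspg2 had 142 and 87.6 against 2.43 and 42.3 CPM, and Efemp1 had 0 and 18.3 against 136 and 98.2 CPM.

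Of the STEAP and iron handling list, 9 of 13 genes were tested in endothelial-like wells, with a median log2 fold change of 0.36, and 6 of 13 in mesangial-like wells, with a median of 0.83. The ferritin genes Fth1 and Ftl1 and the iron regulatory gene Ireb2 had log2 fold changes of 0.01 (SE 0.24), 0.26 (SE 0.37) and 0.36 (SE 0.61) in endothelial-like wells. Over all mesangial-like wells, with or without Steap4 reads, the ferroxidase gene Cp stood at 1612 and 1545 CPM in Diabetes 1 and Diabetes 2. It had 314 and 681 CPM in those of Control 1 and Control 2 (log2 fold change 1.70, SE 0.59, edgeR unadjusted p = 0.00384, adjusted p = 1). Fth1 had 3686 and 2898 CPM there, against 1815 and 1811 CPM, and Ftl1 had 615 and 272 CPM, against 207 and 216 CPM. Each diabetes pool stood above both control pools for Cp, Fth1 and Ftl1, and none of these passed the test. The Diabetes 1 values rest on 2 mesangial-like wells, and the median log2 fold change over all genes tested in this class was -1.03. Fibroblast markers in these wells stood at 3321 and 1141 CPM in the diabetes pools, against 377 and 583 CPM in the control pools. The part of these in the Cp, Fth1 and Ftl1 values was not tested. In podocyte-like wells Fth1 had 1386 and 1041 CPM in the diabetes pools, against 947 and 876 CPM in the control pools, Ftl1 had 336 and 169 against 132 and 105 CPM, and Ireb2 had 135 and 9.33 against 0 and 19.8 CPM.

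Of the proprotein convertase list, 4 of 10 genes were tested in endothelial-like wells, with a median log2 fold change of 0.02, and 2 of 10 in mesangial-like wells, with a median of -0.34. Mbtps1, Furin and Pcsk5, which encode other convertases, had log2 fold changes of -0.05 (SE 0.45), 0.23 (SE 0.63) and 0.09 (SE 0.75) in endothelial-like wells. In mesangial-like wells Mbtps1 had 0 and 41 CPM in the diabetes pools, against 141 and 60.2 CPM in the control pools, Furin had 94.2 and 97.5 against 7.51 and 32.3 CPM, and Pcsk7 had 0 and 31.4 against 5.36 and 4.76 CPM. In podocyte-like wells Pcsk5 had 8.89 and 10.1 CPM in Diabetes 1 and Diabetes 2, against 171 and 44.3 CPM in Control 1 and Control 2. Both diabetes pools lay below both control pools for Pcsk5, while Furin had 8.89 and 37.2 against 10.5 and 17.3 CPM, and Mbtps1 had 8.89 and 257 against 59.1 and 49.8 CPM. The Diabetes 1 values rest on 2 podocyte-like wells, in which 3 reads would be 26.7 CPM, so 8.89 CPM lies under that floor. In this class 10.9% of 6178 genes were at least 5 times lower in diabetes in both experiments, and nothing is read from the order for Pcsk5.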

How the data were processed

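Single-cell RNA libraries of 1600 wells in 4 pools were analysed, from 2 tables of expected counts per gene (45792 genes) and 1 table of spike-in read counts for experiment 1, all deposited by the authors without normalization. Of the non-zero expected counts, 74.1% in experiment 1 and 79.3% in experiment 2 were exactly whole, with no tolerance. Per the submitters' processing notes, the tools included featureCounts 1.5.1, STAR 2.4.2a, cutadapt 1.11 and BWA 0.7.17-r1188, with mm10 as the build and no role or order given. The sources used here do not say whether counting used strand.

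The tables name genes by identifier, and 45143 identifiers were matched to a symbol, leaving 649 unmatched. Wells were taken to pools by the treatment label and the experiment in the well title. Expected counts were summed per pool and scaled to CPM of all gene reads. Depth was 4763756 to 48389746 reads per pool in kept wells, so 3 reads corresponded to 0.079 CPM in Diabetes 2 and 0.446 CPM in Diabetes 1. Classes came from scanpy 1.11.5 (2000 variable genes without the 4 genes, 15 components, 15 neighbours, Leiden resolution 0.8 through igraph 0.11.9). A cluster took the name of the marker list with the most genes among its 50 leading genes. That list also needed at least 1 gene in the top 10, no other list with more there, and at least 3 markers detected. The tubular-like class rests on 1 marker among the 50. Pool sums of a class were rounded and tested with edgeR 4.0.16 (quasi-likelihood, TMM, filterByExpr, Benjamini-Hochberg threshold 0.05) in R 4.3.3, with DESeq2 1.42.0 as an alternative. The scripts were checked on simulated counts. Experiment entered as a block because each array held 1 pool of each condition. Binomial intervals (Clopper-Pearson, 95%) cover counting error only. P-values compare pools of 3 mice, but they also draw on a spread shared over genes. The weight of that shared spread (median prior degrees of freedom) was 4.82 in endothelial-like wells and infinite in mesangial-like wells. The mesangial-like p-values thus rest mainly on the shared spread and not on each gene's own spread between pools. The draw of few wells also enters that spread. Alternatives changed the pseudocount, scaling, filters, thinning, class definition, block and pool set.

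The 4 genes and the gene lists were chosen with earlier results of these data known. Besides the 4 genes, the text names, of each list, genes that passed the test and the 3 with the highest mean CPM in the class, for each of the 4 genes the 5 most alike in level, and sex-linked genes, apart from 1 list gene that is not reported here. The promoter sequences are RefSeq's, and the RefSeq starts of Steap4 and Pcsk6 lie inside the GENCODE genes.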

Additional observations from a re-analysis of the deposited data

Results flagged for a closer look

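Steap4 differed in direction between classes of wells in both experiments. As the mean over experiments of log2(CPM + 1), diabetes minus control, it was -7.91 in mesangial-like wells and 4.23 in smooth muscle or renin-like wells. In endothelial-like wells it was -2.37, against the same 4.23 in smooth muscle or renin-like wells. Every experiment moved one way in the first class of each pair and the opposite way in the other, and the difference between classes was not tested. The positive values rest on 58 reads in 2 wells of Diabetes 1 and 31 reads in 2 wells of Diabetes 2. The Diabetes 1 wells held fibroblast markers and no read of Myh11, Cnn1, Ren1 or Rgs5, and 30 of the 31 Diabetes 2 reads lay in a well with 13736 CPM of mesangial markers.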

How the results depend on the processing

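The mean differences of the 4 genes stayed below 0 in 36 of 36 values under other settings and in 16 of 16 with a pool left out. The 4 genes were chosen for this gap, with each diabetes pool below each control pool. Leaving out a pool could therefore not turn the sign, and nothing is read from these counts. On the log2 scale, the mean difference for Fxyd6 was -5.85 with a pseudocount of 0.1 CPM, -2.72 with 5 CPM and -3.37 with at most 15% mitochondrial reads. For Hmcn1 it was -4.93, -2.80 and -3.79 under the same settings, and -5.16 with wells thinned to 10000 reads. For Steap4 no setting moved it beyond the spread between experiments. For Pcsk6, whose 2 experiments gave nearly equal differences, it was -4.42 and -3.03 with these pseudocounts, -4.00 with TMM, -3.96 with RLE size factors, -3.57 with no filter on wells, -4.10 with at most 15% mitochondrial reads, -4.26 without each pool's highest well, -3.80 after thinning and -3.50 as a mean over wells. With 1 pool left out, the range was -5.65 to -2.54 for Fxyd6, -4.50 to -3.83 for Hmcn1, -5.02 to -2.59 for Steap4 and -4.31 to -3.71 for Pcsk6. The cause of these moves was not tested. The difference in share of wells with a read, diabetes minus control in percentage points, was -22.5 for Fxyd6, -6.13 for Hmcn1, -22.5 for Steap4 and -13 for Pcsk6, and kept its direction with at least 5 reads and after thinning. The choice of genes with few reads in diabetes favours this direction, so nothing is read from it. Genes called in endothelial-like wells numbered 1 with the replicate block and 2 without it, 5 with no filter on low counts, 107 with DESeq2, 4 with classes by marker share, and 12 to 99 with 1 pool left out. In mesangial-like wells they numbered 0 with and without the replicate block, 2 with RLE size factors, 2 with DESeq2, 2 with classes by marker share, and 0 to 1306 with 1 pool left out (213 without Diabetes 1, 1306 without Diabetes 2). A fit without 1 pool has no block, and its lone pool is assumed to vary like the others. In mesangial-like wells the median over all genes of the log2 fold change was -1.03 with TMM and -0.83 with RLE size factors. Depth limits the mesangial-like and podocyte-like values of Diabetes 1 most, with 191165 and 112472 reads in 2 wells each.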

Other observations

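Other autosomal genes among the 47 at least 5 times lower in both diabetes pools, named here after their values were seen, included Tcf21 and Foxd1, transcription factor genes of podocytes and the kidney stroma, and Sfrp2, a Wnt modulator and one of the mesangial markers. Tcf21 had 6.69 and 4.03 CPM in Diabetes 1 and Diabetes 2, against 322 and 23.8 CPM in Control 1 and Control 2. Foxd1 had 0.149 and 2.26 CPM in the diabetes pools, against 29.5 and 13.8 CPM in the control pools. Sfrp2 had 71.9 and 78.6 CPM in the diabetes pools, against 615 and 421 CPM in the control pools. Of the 47 genes, 3 lie on the X chromosome and 44 on autosomes. The 116 genes at least 5 times higher in both diabetes pools (1.28% of 9032) included the complement genes C1qa, C1qb and C1qc, also named after their values were seen. The immune-like class held 28 and 39 wells in Diabetes 1 and Diabetes 2, against 5 and 5 wells in the control pools. In this class the 3 genes were read in 25, 26 and 26 of 28 wells of Diabetes 1, but in 6, 9 and 7 of 39 wells of Diabetes 2.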
